A study of Homo sapiens with 6 samples.

Results

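FTC-133 is an established human follicular thyroid carcinoma cell line, and its RNA was compared here between cells given a small interfering RNA (siRNA) against CRABP2 (siCRABP2) and cells given a control siRNA (siControl). These are 2 of the 6 RNA sequencing libraries of the series. The other libraries are labelled siCRABP2 and siControl in BHT-101, and CRABP2 expression vector and empty vector in 8505C. Both are anaplastic thyroid carcinoma lines. Whether BHT-101 and FTC-133 were given the same siRNA sequences is not stated. Each condition is 1 library, so no difference has a replicate check and no test was made. The siRNA sequence, dose and time after transfection are not given in the labels used here, and nothing there says that cultures were grown separately.

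Of 19945 protein-coding gene identifiers, 10950 were measured in FTC-133, meaning a level of at least 1 FPKM in one or both libraries. FPKM is a read number scaled to the length of the gene's exons and to the depth of the library, so levels can be set side by side between genes. Differences are those of log2(FPKM + 1), siCRABP2 minus siControl, which understate the change of genes with low levels. A gene is called higher or lower where that difference is at least 1, a 2-fold step. Paired values give siControl first and siCRABP2 second, with the difference last, in brackets or after a comma.

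CRABP2 is a small cytosolic protein that binds retinoic acid and hands it to the retinoic acid receptors, which pair with retinoid X receptors on DNA and switch target genes on. The related carrier FABP5 can take the same ligand to PPARD, another nuclear receptor. Retinoic acid has been studied in thyroid carcinoma as an agent that can move cells back toward a differentiated state.

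The targeted gene was checked first. CRABP2 (ENSG00000143320, GRCh38 chr1:156699606-156705816, minus strand) held 240 reads in the siControl library and 5 in the siCRABP2 library, and its level there was 52.6 times lower in FPKM (-3.09). Scaled to library depth, the log2 ratio of reads had a 95% exact (Clopper-Pearson) interval of -7.35 to -4.47. It covers counting error only, compares 2 libraries rather than conditions, and treats reads without molecular tags as independent. The label of the knockdown library therefore matches the gene it names.

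Read totals recovered from the values were 24823867 for siControl and 27187323 for siCRABP2. Genes of the mitochondrial genome held 3.69% of reads with siControl (95% Wilson interval 3.685 to 3.7%) and 2.88% with siCRABP2 (2.876 to 2.888%), and the part of this shift in the results below was not tested. Of 7 thyroid markers only PAX8 (12.3 and 13 FPKM, 0.08) and NKX2-1 (22.6 and 12.4 FPKM, -0.82), both transcription factors of the follicular cell, were measured. TG, which encodes thyroglobulin, was under the minimum with 10 and 2 reads, and the iodide transporter SLC5A5 had 0 reads in both. The 7 leukocyte markers summed to 1.17 and 0.645 FPKM, with CD3E and TYROBP at 0 reads in both libraries. The largest part of both sums was CSF1R, at 0.962 and 0.378 FPKM (123 and 53 reads). The 5 endothelial markers summed to 1.68 and 1.02 FPKM. In RNA from whole cultures, fewer cells of a type and less RNA per cell cannot be told apart.

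By the size rule 184 genes were higher (1.68% of those measured) and 145 were lower (1.32%) with siCRABP2. Most genes lay close to 0: 80.1% were within 0.5 on the log2 scale and the median of all was -0.04. Median levels were 4.35 and 13.7 FPKM for the higher genes, 10.8 and 3.46 FPKM for the lower genes and 7.34 and 7.07 FPKM for all measured genes, an order that the size rule itself favours. At larger steps, 26 genes were at least 4-fold higher against 7 at least 4-fold lower, and 8 at least 8-fold higher against 1 at least 8-fold lower, which was CRABP2 itself. The split depends on how low levels are weighed: with 0.1 FPKM added in place of 1, 312 genes were higher and 367 lower, and with 5 FPKM added 78 and 31. For all 184 higher and all 145 lower genes that counting interval lay clear of 0. The 1 FPKM minimum, the size rule and the read depth nearly fix that outcome in advance, so it adds no support to the calls. The same share over all measured genes is not given here. Just inside the size rule was MOGS, a glucosidase of the endoplasmic reticulum, at 31.4 and 63.9 FPKM (1.0), and just outside it was IFIH1, a sensor of double-stranded RNA, at 3.56 and 8.07 FPKM (0.99).

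**Figure D1:**
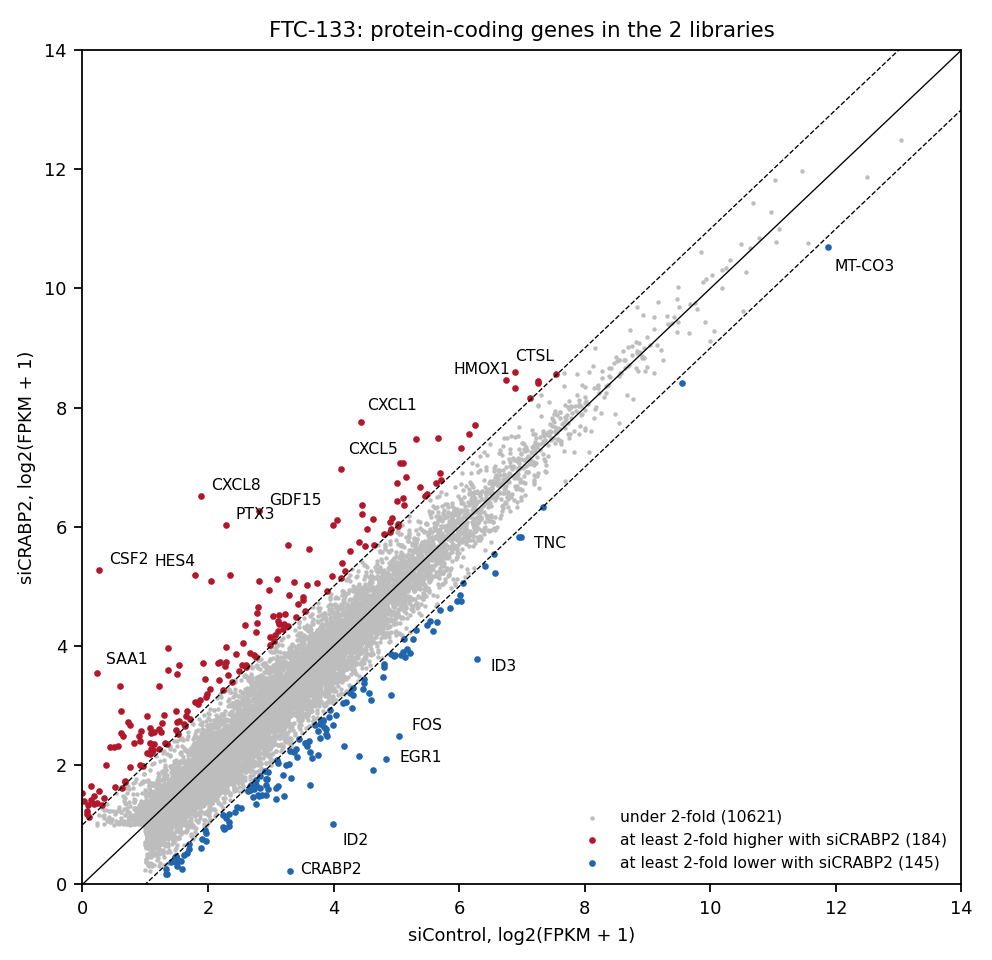
Each point is 1 protein-coding gene, with log2(FPKM + 1) in the siControl library on the horizontal axis and in the siCRABP2 library on the vertical axis, 1 library each. Solid and dashed lines mark no difference and 2-fold; 184 genes lie on or above the upper line and 145 on or below the lower, and CSF2, CXCL8 and PTX3 lie farthest above while CRABP2 and ID2 lie farthest below.

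Of the 184 higher genes, 96 belong to at least 1 of 44 gene lists, and 88 to none. Of the 145 lower genes, 22 are in a list and 123 in none. The lists and their members were chosen with earlier results of these data known, so nothing is read from this split. Lists and marker lists together hold 1022 distinct genes, and the share of all measured genes in a list was not counted. A member that passed the 1 FPKM minimum only through the library where it is high had to differ, so list counts and medians are descriptions of the measured members and support nothing further. Each list median is followed by the lowest and highest value it took over 7 alternatives of pseudocount, filter, scaling and unit. Lists are read here against all measured genes, of which 1.68% were higher, 1.32% lower, 46.2% above 0 and 53.8% below 0.

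**Figure D2:**
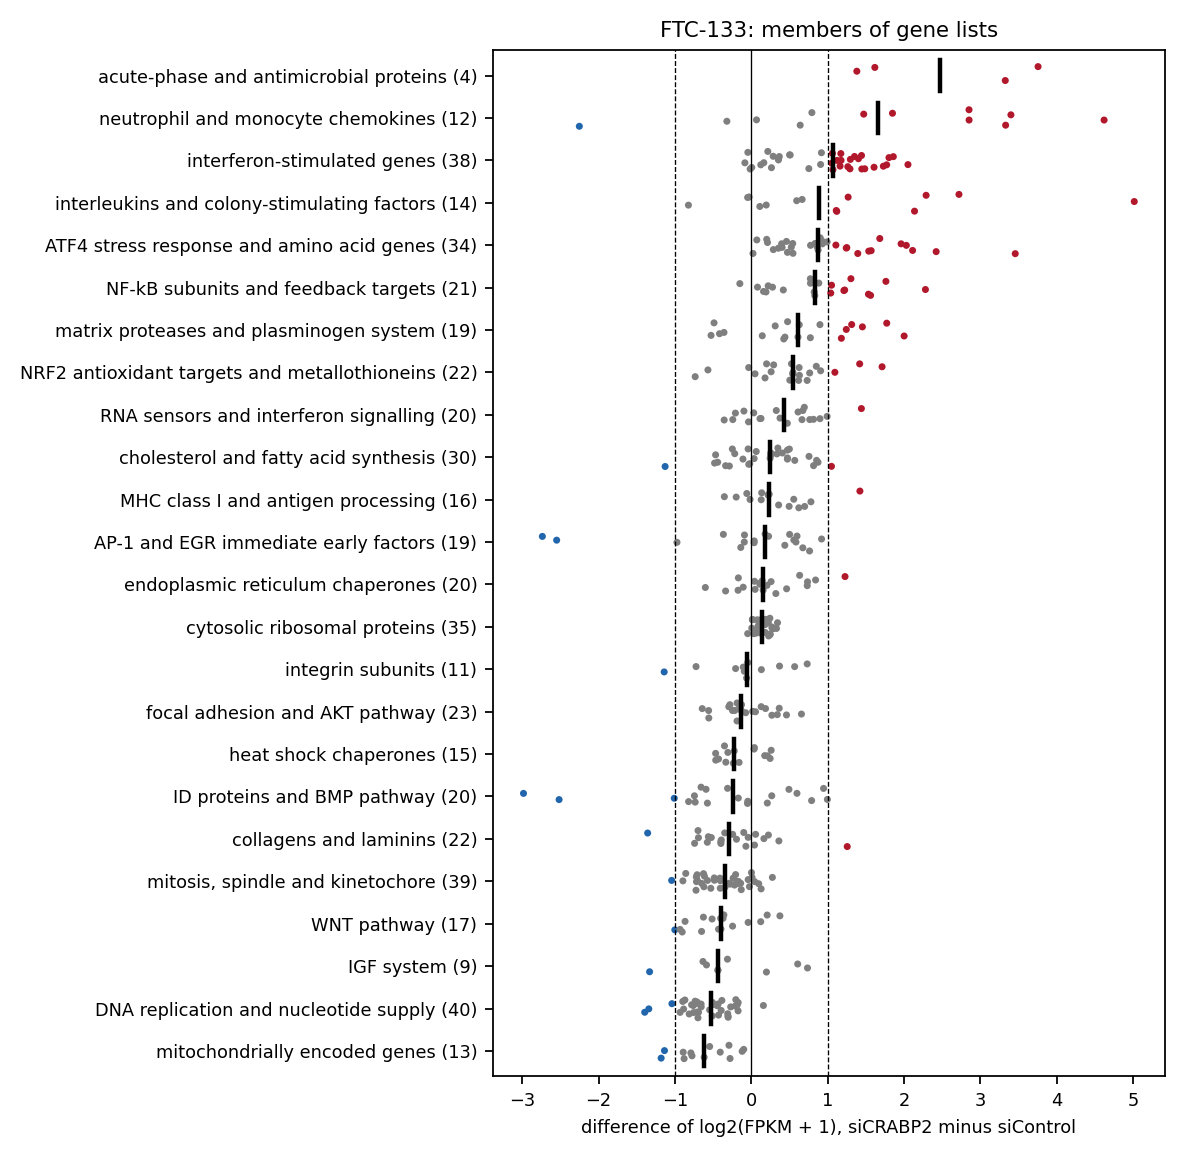
Each point is 1 measured gene of a list, placed by its difference of log2(FPKM + 1), siCRABP2 minus siControl, for 24 of the lists with the number of measured members in brackets; black bars are list medians and dashed lines mark 2-fold. The bar of the acute-phase proteins, at 2.47, stands on 4 of 19 members and was 0.20 with no filter, while that of all 13 mitochondrially encoded genes lies at -0.62.

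Chemokines that attract neutrophils lay next to each other in the genome. A cluster on the long arm of chromosome 4 holds CXCL8, CXCL6, CXCL1, CXCL5, CXCL3 and CXCL2, which all signal through the receptor CXCR2, and all 6 were higher with siCRABP2. Their promoters share a sequence, shown here before the levels. NF-kB dimers bind sites of the form GGAANTTCC. Each of these promoters carries the same version of it between 77 and 91 bases before the RefSeq transcription start. Below are the stretches around that site, 5′ to 3′ on the gene's own strand, with the 9 matching letters in capitals (RefSeq starts, GRCh38.p14).
CXCL8 (chr4:73740468-73740496, plus strand): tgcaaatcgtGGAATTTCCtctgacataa
CXCL6 (chr4:73836579-73836607, plus strand): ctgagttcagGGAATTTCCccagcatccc
CXCL5 (chr4:73998749-73998777, minus strand): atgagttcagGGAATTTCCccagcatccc
CXCL1 (chr4:73869305-73869333, plus strand): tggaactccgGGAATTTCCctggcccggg
CXCL2 (chr4:74099254-74099282, minus strand): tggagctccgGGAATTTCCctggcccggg
CXCL3 (chr4:74038749-74038777, minus strand): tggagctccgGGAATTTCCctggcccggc
In GENCODE release 29, which gave the exon lengths here, the stretches of CXCL6, CXCL5, CXCL3 and CXCL2 overlap an exon. By that annotation they lie inside the gene and not before it. The flanks of CXCL6 and CXCL5 read almost alike, as do those of CXCL1, CXCL2 and CXCL3. These genes are duplicated copies, so their reads cannot be assigned to each copy with certainty.

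For the longer context of that site, the 110 bases that end just before the start of CXCL1 (chr4:73869283-73869392, plus strand) are given with the same letters in capitals.
CXCL1: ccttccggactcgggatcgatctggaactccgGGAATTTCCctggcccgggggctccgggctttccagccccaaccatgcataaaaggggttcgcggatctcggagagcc
Searched on both strands of the 300-base windows from 250 bases before to 50 bases after the RefSeq start, GGAANTTCC was present in 8 of the 135 higher genes with a window (5.93%), in 1 of 100 lower genes (1%), in 1.09% of the 8794 measured genes with a window and in 0.967% of all 27305 promoters in the table. Besides the 6 chemokines the higher genes that held it were TNFRSF9, a costimulatory receptor named only for this match, and NFKBIZ, an NF-kB cofactor. A match is a description of letters and not of a bound site.

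Along the cluster the difference was not shared by every gene. From the centromere side, CXCL8 had 151 reads with siControl and 5496 with siCRABP2 (a log2(FPKM + 1) difference of 4.62), and CXCL6 had 207 and 1980 reads (2.85). PF4V1, a variant of the platelet chemokine PF4, followed with 56 and 76 reads (0.24), and then CXCL1 with 661 and 7595 reads (3.33). PF4 itself had 16 and 39 reads (0.71), and PPBP, the other platelet chemokine of the cluster, had 0 reads in both libraries. CXCL5 had 995 and 8267 reads (2.85), CXCL3 31 and 279 (1.85), and CXCL2 86 and 1356 (3.4). The next gene outward, MTHFD2L, which encodes a mitochondrial folate enzyme, was nearly level at 548 and 614 reads (0.02). Farther along, the growth factor gene EREG was higher again at 99 and 835 reads (1.91). Higher genes of the cluster were thus interleaved with platelet chemokine genes and an enzyme gene that were under 2-fold on the log2(FPKM + 1) scale. On plain FPKM, PF4 was 1.07 and 2.37, 2.23 times as high.

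Of the 20 chemokines listed, 12 were measured: 7 were higher, 1 was lower and 10 lay above 0, with a median of 1.66 (0.79 to 2.85). CXCL3 and CCL20 passed the minimum only through siCRABP2, and with no filter the median was 0.79. The seventh higher member was CCL5, which attracts T cells and monocytes, at 7.23 and 21.8 FPKM (1.47). The lower member was CXCL12, a homeostatic chemokine made by stromal cells, at 20.2 and 3.46 FPKM (-2.25). Its scavenging receptor ACKR3 was lower too, at 13.7 and 4.73 FPKM (-1.36). CCL2 stayed under the minimum with 8 and 10 reads, and CXCL10, an interferon-induced chemokine, had 0 reads in both libraries.

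Among interleukins and colony-stimulating factors, 7 of 14 measured members were higher and none was lower, with a median of 0.89 (0.37 to 2.14). Of the 14, 6 passed the minimum only through siCRABP2, among them CSF2, IL1A, IL1B and TNF, and with no filter the median was 0.39. CSF2, the gene of GM-CSF, a growth factor of granulocytes and macrophages, had the largest difference of all measured genes: 4 reads in the siControl library against 812, with a counting interval of 6.17 to 9.41 for the log2 read ratio. The fever cytokines IL1B (40 and 758 reads) and IL1A (28 and 374 reads), which lie close together on chromosome 2, differed by 2.72 and 2.29. IL6, a driver of the acute-phase response, had 98 and 663 reads (2.14). LIF, a cytokine of the same family, stood at 10.4 and 26.3 FPKM (1.27), and TNF at 0.264 and 1.73 FPKM (1.11). IL33, an alarmin, had the lowest difference of the list at 3.23 and 1.39 FPKM (-0.82).

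Among cytokine receptors 3 of 20 measured members were higher, none lower, and the median was 0.14 (0.07 to 0.20). The higher members were IL15RA (5.82 and 17.9 FPKM, 1.47), the decoy receptor IL13RA2 (9.59 and 21.4 FPKM, 1.08) and the IL-6 receptor chain IL6R (0.961 and 2.98 FPKM, 1.02). IL6ST, the signalling chain shared by IL-6 and LIF, was 19.3 and 12.9 FPKM (-0.55).

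NF-kB genes include the subunits of the factor and the inhibitors it induces. Of 21 measured members 9 were higher, none was lower and 20 lay above 0, with a median of 0.83 (0.72 to 0.90). Higher among the subunits were RELB (3.47 and 12.2 FPKM, 1.56) and NFKB2 (7.67 and 20.4 FPKM, 1.3), which form the noncanonical dimer, whereas RELA (9.38 and 11.6 FPKM, 0.28) and NFKB1 (6.13 and 6.54 FPKM, 0.08) of the canonical dimer were under 2-fold. Higher among the feedback genes were the RNase ZC3H12A (5.9 and 22.4 FPKM, 1.76), the ubiquitin editor TNFAIP3 (1.84 and 5.61 FPKM, 1.22) and NFKBIZ (5.1 and 11.6 FPKM, 1.05). The mitochondrial superoxide dismutase SOD2 had the largest difference of the list, at 6.03 and 33.1 FPKM (2.28). NFKBIA, which encodes the main inhibitor IkB-alpha, was 18.3 and 33.3 FPKM (0.83), under the 2-fold step. In this list GGAANTTCC was held by 1 of 6 higher members with a window (16.7%) and by 3 of 17 measured members (17.6%). NFKBIZ carries the same 9 letters as the chemokines, but 222 bases before its start (chr3:101827758-101827786, plus strand).
NFKBIZ: ttttggtctgGGAATTTCCagtgtgcaga

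All 4 measured acute-phase and antimicrobial proteins were higher, and 15 of the 19 listed were not measured. SAA1, SAA2 and LCN2 reached the minimum only through the siCRABP2 library, so nothing is read from the count. The pattern recognition protein PTX3 had 181 and 3314 reads (3.75). SAA1, an apolipoprotein of the acute phase, had 3 reads in siControl and 207 in siCRABP2, an interval of 4.41 to 8.27 for the log2 ratio, and its near-identical neighbour SAA2 had 1 and 100 reads, with an interval of 4.0 to 11.83. The siderophore-binding LCN2 had 12 and 130 reads (1.62). Of 11 measured complement genes only CD55, which protects cells from complement, was higher (18.3 and 47.6 FPKM, 1.34).

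**Figure D3:**
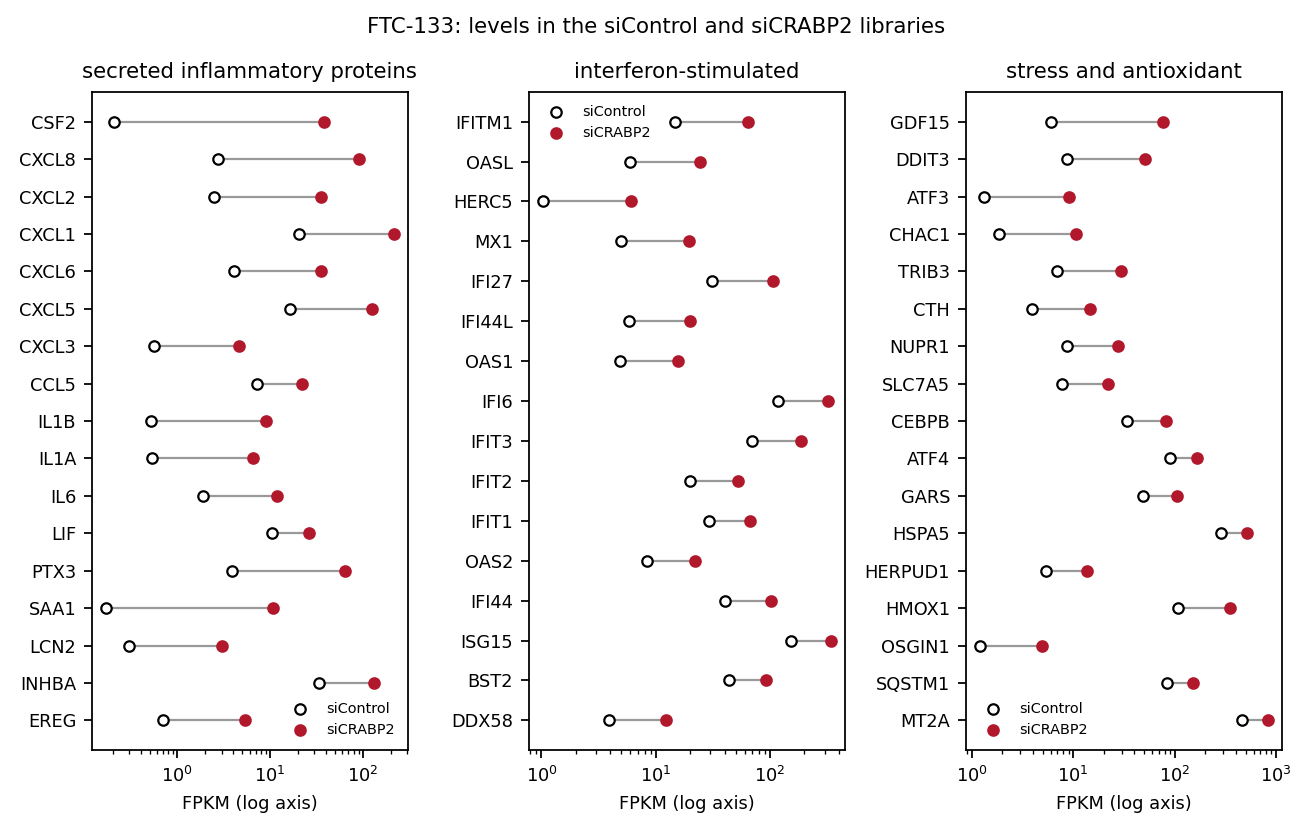
Open circles are the siControl library and filled circles the siCRABP2 library, 1 value each, in FPKM on a log axis that differs between the 3 panels. Every gene shown was above its siControl level with siCRABP2, by wide steps for CSF2 (0.204 and 37.9 FPKM) and narrow ones for MT2A (457 and 824 FPKM).

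Interferon-stimulated genes, which cells switch on against viruses, had the most higher members of the 44 lists by count. By share they stood at 55.3%, under the 58.3% of chemokines and the 100% of acute-phase proteins. All 38 interferon-stimulated genes listed were measured: 21 were higher, none was lower and 35 lay above 0. Their median was 1.06 (0.70 to 1.21), with 4 members past the minimum only through siCRABP2. Factors induced by type I interferon bind the interferon-stimulated response element, whose repeated core can be searched as GAAA, any 2 letters, and GAAA again. Of the promoter windows 15 of the 17 that belong to higher members held those letters on either strand (88.2%). Among all measured members of the list, higher or not, 21 of 30 windows held them (70%), so much of that share belongs to the list. Over all 135 higher genes with a window the share was 14.8%, over 100 lower genes 1%, over measured genes 2.84% and over all promoters 3.65%. The examples below are 6 of the 15 higher members that held the letters, picked because their levels are described next. They are on the gene's strand (RefSeq, GRCh38.p14), with the letters, or their reverse complement (TTTC, any 2 letters, TTTC), in capitals. The stretches of IFITM3 and BST2 overlap an exon of GENCODE release 29.
ISG15 (chr1:1013377-1013406, plus strand): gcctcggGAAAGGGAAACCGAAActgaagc
IFI6 (chr1:27672266-27672295, minus strand): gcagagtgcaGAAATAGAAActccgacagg
IFIT1 (chr10:89392504-89392532, plus strand): tagTTTCACTTTCcccTTTCGGTTTCcct
IFI27 (chr14:94110625-94110653, plus strand): cagTTTCGGTTTCctgGAAAATGAAAcct
IFITM3 (chr11:320885-320913, minus strand): gGAAAAGGAAActgttgaGAAACCGAAAc
BST2 (chr19:17405738-17405767, minus strand): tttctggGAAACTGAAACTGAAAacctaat

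Unlike CSF2 or SAA1, the members shown were already expressed in siControl. The ubiquitin-like modifier ISG15 stood at 151 and 339 FPKM (1.16), the small membrane protein IFI6 at 118 and 322 FPKM (1.45) and IFI27 at 31.3 and 106 FPKM (1.73). IFIT1, IFIT2 and IFIT3 bind foreign RNA, and their differences were 1.17, 1.35 and 1.4, with reads of these relatives partly uncertain. The membrane proteins that block virus entry had differences of 2.05 for IFITM1 (14.8 and 64.6 FPKM) and 1.05 for IFITM3 (43 and 90.2 FPKM), and BST2, which tethers budding virus, stood at 44 and 92.9 FPKM (1.06). The GTPase MX1 was 5.0 and 19.5 FPKM, whereas its relative MX2 was 9.07 and 8.76 FPKM (-0.05). The 3 members below 0 were MX2, IFIT5 (-0.02) and SAMD9 (-0.08).

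Upstream of them, 1 of 20 measured RNA sensors and interferon signalling genes was higher and 15 lay above 0, with a median of 0.42 (0.21 to 0.59). The higher member was DDX58, the RNA helicase RIG-I, at 3.9 and 12.3 FPKM (1.44). IFIH1, the related helicase MDA5, lay at 0.99 and the kinase EIF2AK2, which is activated by double-stranded RNA, at 8.46 and 13.4 FPKM (0.61). The interferon genes themselves stayed under the minimum, with 0 and 13 reads for IFNB1 and 1 and 8 for IFNL1. In the antigen-presentation list 1 of 16 measured members was higher: HLA-E, a ligand of natural killer cell receptors, at 31.3 and 85.5 FPKM (1.42). B2M, the light chain of class I molecules (158 and 232 FPKM, 0.56), was under 2-fold, and reads of HLA genes are uncertain between copies.

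A second large list was that of the ATF4 stress response, through which cells answer shortage of amino acids or stress of the endoplasmic reticulum. All 34 listed genes were measured and all 34 lay above 0. Of them 12 were higher and none lower, with a median of 0.87 (0.58 to 0.94), and ASNS and FGF21 passed the minimum only through siCRABP2. Among its transcription factors DDIT3 (CHOP) had 282 and 1807 reads (2.42), ATF3 stood at 1.33 and 9.05 FPKM (2.11) and CEBPB at 33.8 and 81.7 FPKM (1.25). ATF4 itself, which is controlled mainly at translation, is shown with them in the plot of levels. The secreted members were GDF15, a hormone that suppresses appetite (6.04 and 76.2 FPKM, 3.46), and FGF21, a metabolic hormone with 0 reads in siControl and 68 in siCRABP2.

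Enzymes and transporters of amino acid supply were part of the same list. The cystathionine lyase CTH stood at 3.9 and 14.7 FPKM (1.68), the leucine transporter SLC7A5 at 7.76 and 22 FPKM (1.39) and the glycyl-tRNA synthetase GARS at 48.6 and 106 FPKM (1.11). ASNS, which makes asparagine, had 7 reads in siControl and 200 in siCRABP2, an interval of 3.64 to 6.04. Its levels were 0.0576 and 1.5 FPKM, and whether reads were lost to overlapping genes was not checked. CHAC1, which degrades glutathione, had 94 and 592 reads (2.03). TRIB3, a pseudokinase that restrains ATF4, stood at 6.87 and 29.6 FPKM (1.96). The letters TGATGNAAT of the C/EBP-ATF element were found in the windows of 1 of the 10 higher members that had one, FGF21, in 0.443% of measured genes and in 1.02% of all promoters.

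Chaperones of the endoplasmic reticulum had 1 of 20 measured members higher, 15 above 0 and a median of 0.15 (0.07 to 0.21). The higher member was HERPUD1, which serves the disposal of misfolded proteins (5.34 and 13.8 FPKM, 1.23). HSPA5 (BiP), the main chaperone of that compartment, was 286 and 512 FPKM (0.84), and XBP1 was 28.1 and 47.4 FPKM (0.73). KDELR3, a receptor that returns chaperones from the Golgi, was higher at 51 and 119 FPKM (1.21). Heat shock chaperones had a median of -0.22 (-0.26 to -0.16), and none of 15 was higher or lower. Of them 9 were below 0 and 6 above (40%, against 46.2% of all measured genes), close to the general split. HSP90AA1 stood at 407 and 294 FPKM (-0.47). The stress list and the heat shock list thus had medians of opposite sign, but nothing is read from the heat shock counts.

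Among 22 measured NRF2 targets and metallothioneins 3 were higher, none was lower and 19 lay above 0, with a median of 0.54 (0.38 to 0.61). Heme oxygenase HMOX1 had 6104 and 22036 reads and reached 353 FPKM (1.71). OSGIN1, an oxidative stress gene, stood at 1.21 and 4.89 FPKM (1.42) and the metallothionein MT1X at 4.62 and 11 FPKM (1.09), with reads of MT1 copies uncertain. The ferritin chains FTL (919 and 1561 FPKM, 0.76) and FTH1 (713 and 1038 FPKM, 0.54), which store the iron that heme breakdown frees, were under 2-fold. In the lysosome list the cysteine protease CTSL was the 1 higher member of 19, at 118 and 384 FPKM (1.7), while the aspartic protease CTSD was 268 and 152 FPKM (-0.81).

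Of 19 measured p53 targets 3 were higher and none lower, with a median of 0.15 (0.07 to 0.64). The CDK inhibitor CDKN1A (p21) stood at 9.39 and 32.8 FPKM (1.7), and the killer proteins PMAIP1 (NOXA) at 64.7 and 159.5 FPKM (1.29) and BBC3 (PUMA) at 2.88 and 9.89 FPKM (1.49). The others were under 2-fold, among them MDM2 at 1.92 and 1.92 FPKM (0.00) and TP53I3 at 13.3 and 7.16 FPKM (-0.81). Of 17 measured genes of the BCL2 family and apoptosis inhibitors 3 were higher, the same PMAIP1 and BBC3 with BCL2A1, none was lower and the median was 0.13 (0.09 to 0.20). BMF, another death gene of the family, was 2.33 and 1.01 FPKM (-0.73). BCL2A1, a survival protein and a known NF-kB target, had 2 and 49 reads, with an interval of 2.55 to 7.57. MCL1, the most abundant survival member named here, was 60.5 and 63.8 FPKM.

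In the TGF-beta list 2 activin subunits were higher. INHBA, the subunit of activin A, stood at 33.4 and 133 FPKM (1.97), and INHBE, the subunit of activin E, had 119 and 1206 reads (2.6). INHBB, a further activin subunit, was not measured, with 2 and 0 reads. The type II receptor TGFBR2 was 18.2 and 8.84 FPKM (-0.96). Over the 19 measured genes of this list 3 were higher, none lower and the median was 0.02 (-0.01 to 0.07), and the ligand gene TGFB1 itself was 30.8 and 35.7 FPKM (0.21).

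The matrix protease and plasminogen list had 6 higher members of 19 measured, none lower and a median of 0.61 (0.37 to 0.68). The collagenase MMP1 had 32 and 301 reads (2.0), and the urokinase receptor PLAUR stood at 10.4 and 27.5 FPKM (1.31). Tissue factor F3, which starts coagulation, stood at 20.8 and 73.5 FPKM (1.77). The protease inhibitor TFPI2 was 75.6 and 209 FPKM (1.45) and the anticoagulant receptor THBD 7.75 and 19.7 FPKM (1.24). Both the starter of coagulation and THBD, which restrains it, were therefore higher. MMP2 was 274 and 195 FPKM (-0.49), below 0.

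In the Notch list HES4, a repressor of the HES family, had 87 and 1003 reads (3.04), HES7 stood at 1.39 and 4.85 FPKM (1.29) and the receptor NOTCH3 at 2.68 and 7.53 FPKM (1.21). HES1, the standard readout of the pathway, was 27 and 20.9 FPKM (-0.36), and LFNG, which glycosylates Notch receptors, was lower with 132 and 18 reads (-1.09). Members of the list therefore differed in both directions, and its median over 13 measured genes was 0.20 (0.01 to 0.36), lowest with no filter.

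Of 21 measured genes of MAPK feedback 3 were higher and none lower, with a median of 0.00 (0.00 to 0.20). The dual-specificity phosphatases DUSP5 (11.3 and 48.5 FPKM, 2.02) and DUSP4 (1.82 and 5.02 FPKM, 1.1), which switch off ERK in the nucleus, were higher, while the ERK phosphatase DUSP6 stood at 4.59 and 5.44 FPKM (0.20) and SPRY4 at 1.04 and 1.45 FPKM (0.26). Of 8 measured genes of the EGF receptor family 2 were higher and 5 lay below 0, with a median of -0.05 (-0.09 to 0.02). The ligand genes EREG (0.698 and 5.38 FPKM, 1.91) and AREG (0.54 and 2.08 FPKM, 1.0) were higher, both past the minimum only through siCRABP2, and their receptor EGFR was 11.1 and 6.73 FPKM (-0.64). Further higher genes outside the lists were RND3, a small GTPase that relaxes the actin skeleton (38.9 and 177 FPKM, 2.16), TMEM158 (32.3 and 134 FPKM, 2.02), the survival kinase PIM1 (7.55 and 33.7 FPKM, 2.02), the transcription factor CEBPD (20.9 and 81.1 FPKM, 1.91), MAFF (1.56 and 11.1 FPKM, 2.25), a small MAF protein, and the lipase inhibitor G0S2 (49.8 and 179.7 FPKM, 1.83). NDRG1, a gene known for induction by hypoxia, stood at 15.6 and 68.5 FPKM (2.06), whereas LDHA of the same list was 358 and 237 FPKM (-0.59). In the list of glycolysis and hypoxia genes NDRG1 was the 1 higher member of 26, and the median was -0.18 (-0.23 to -0.11).

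4 genes of polyamine metabolism were named after their values were seen and stand for no list. SAT1, which acetylates polyamines for breakdown, stood at 22.1 and 61.3 FPKM (1.43), and the spermine oxidase SMOX at 9.78 and 25.1 FPKM (1.28). ODC1, which makes the first polyamine of the pathway, was lower at 61.6 and 26.1 FPKM (-1.21), and MAT2A, which makes the methyl and aminopropyl donor S-adenosylmethionine, at 56.7 and 23.8 FPKM (-1.22).

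Among the lower genes, ID proteins and immediate early factors had some of the largest differences. ID proteins bind basic helix-loop-helix factors and keep them from DNA, and they are direct targets of BMP signalling. ID2 had 820 reads in siControl and 61 in siCRABP2 (-2.98), and ID3 had 2873 and 516 (-2.52). ID1, the most abundant of them, stood at 161 and 79.4 FPKM (-1.01), and ID4 at 2.28 and 0.969 FPKM (-0.74). The inhibitory SMADs, also BMP targets, were SMAD6 at 3.27 and 1.41 FPKM (-0.82) and SMAD7 at 11.2 and 6.3 FPKM (-0.75), and the receptor BMPR2 was 6.28 and 3.61 FPKM (-0.66). Against these, the ligand BMP2 was 1.75 and 4.3 FPKM (0.95) and the antagonist GREM1 19.8 and 35 FPKM (0.79). Of 20 measured members 3 were lower, none higher and 13 below 0, with a median of -0.24 (-0.70 to -0.12).

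**Figure D4:**
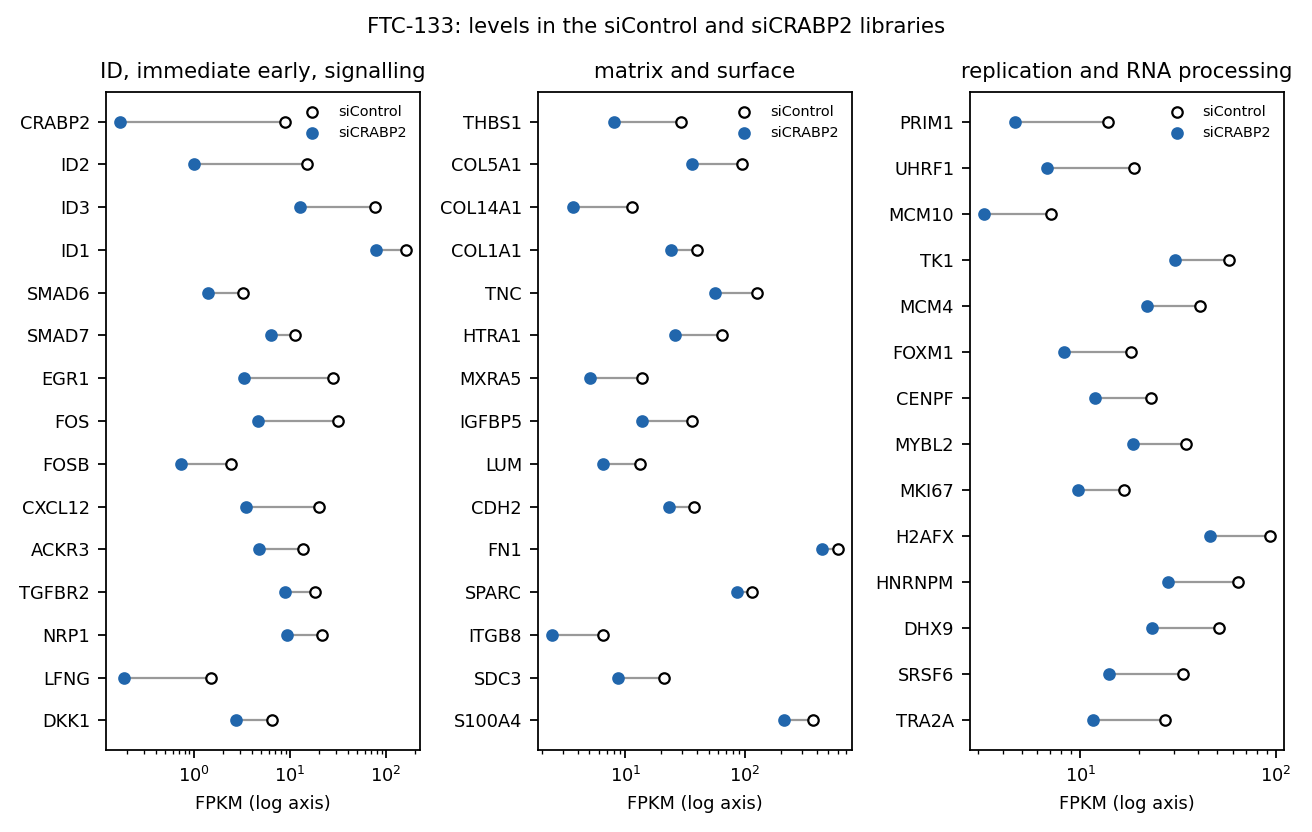
Open circles are the siControl library and filled circles the siCRABP2 library, 1 value each, in FPKM on a log axis that differs between the 3 panels. Every gene shown was below its siControl level with siCRABP2, by a wide step for CRABP2 (8.94 and 0.17 FPKM) and a narrow one for FN1 (604 and 443 FPKM).

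EGR1 and FOS are immediate early genes, switched on within minutes when serum response factor and its ETS partners act on the CArG box. EGR1 had 2157 reads in siControl and 282 in siCRABP2 (-2.74), FOS had 2527 and 401 (-2.55), and FOSB stood at 2.41 and 0.735 FPKM (-0.97). Other AP-1 members were under 2-fold, with JUN at 67.1 and 62.9 FPKM (-0.09), JUNB at 122 and 125 FPKM (0.04) and FOSL1 at 43.3 and 66.1 FPKM (0.60), and the list held 12 of 19 measured members above 0. The EGR1 promoter is shown for its CArG boxes, both in capitals, in the 110 bases chr5:138465369-138465478 on the plus strand (RefSeq, GRCh38.p14).
EGR1: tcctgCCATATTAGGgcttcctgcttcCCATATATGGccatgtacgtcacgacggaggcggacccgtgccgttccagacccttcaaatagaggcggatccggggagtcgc
The boxes begin 105 and 83 bases before the start. EGR1 was the only lower gene with a window that held a CArG box (1 of 100), against 4 of 135 higher genes (2.96%), 1.11% of measured genes and 1.29% of all promoters, and one of those higher genes was RND3. The windows begin 250 bases before the start, so a box farther upstream of FOS or any other gene was not searched for.

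Genes of retinoid handling belong to the pathway of the targeted gene. Of 16 measured carriers, enzymes and receptors 1 was lower, CRABP2 itself (6.25%, against 1.32% of all measured genes), and none was higher. Below 0 lay 12, with a median of -0.18 (-0.23 to -0.05). The carrier FABP5 was 47.6 and 65.6 FPKM (0.45), and CRABP1, the nearest relative of CRABP2, had 0 reads in both libraries. The receptors RARA (6.97 and 4.18 FPKM, -0.62), RARB (7.06 and 6.07 FPKM, -0.19), RARG (7.96 and 6.96 FPKM, -0.17) and RXRA (4.65 and 2.97 FPKM, -0.51) all lay below 0 and under 2-fold. Among 12 measured retinoic acid responders 1 was lower (8.33%), 9 lay below 0 and the median was -0.22 (-0.36 to -0.15). Lists this small cannot show whether the share called was unusual. The lower member was RARRES2, the precursor of the adipokine chemerin, at 34.3 and 13.1 FPKM (-1.32), followed by the corepressor NRIP1 (12.3 and 6.36 FPKM, -0.85) and the retinaldehyde reductase DHRS3 (14 and 7.88 FPKM, -0.76). CYP26A1, the retinoic acid hydroxylase that responds most directly, had 2 and 1 reads, too few to read.

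Collagens and laminins build the matrix around cells. Of 22 measured collagens and laminins 16 lay below 0, 1 was lower and 1 higher, with a median of -0.30 (-0.33 to -0.15). The fibrillar collagen chain COL5A1 had 26249 reads in siControl and 11032 in siCRABP2 (-1.36), and COL1A1 stood at 39.6 and 24.1 FPKM (-0.69) while its partner chain COL1A2 was 107 and 111 FPKM. The higher member was the epithelial laminin chain LAMB3 (3.51 and 9.77 FPKM, 1.26). Outside the list, thrombospondin THBS1 (29 and 8.04 FPKM, -1.73), COL14A1 (11.3 and 3.64 FPKM, -1.41), tenascin TNC (126 and 56.2 FPKM, -1.15), the protease HTRA1 (64.4 and 26 FPKM, -1.28) and the growth factor carrier IGFBP5 (36.1 and 13.7 FPKM, -1.33) were lower. SCX, a transcription factor of tendon matrix (11.6 and 3.36 FPKM, -1.53), and SOX9, which drives cartilage collagen genes (7.49 and 2.08 FPKM, -1.47), were lower as well. The 6 fibroblast markers summed to 160.7 and 142.9 FPKM, with COL1A1 and LUM (13.2 and 6.53 FPKM, -0.92) below 0, DCN at 18 and 33 reads and PDGFRA at 8 and 3; their part in the matrix result was not tested.

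Integrins and focal adhesion genes link cells to the matrix. Of 11 measured integrin subunits 1 was lower, ITGB8 (6.55 and 2.42 FPKM, -1.14), none was higher, and ITGA5, the fibronectin receptor chain, had the largest positive value at 60.01 and 100.3 FPKM (0.73). None of 23 measured focal adhesion and AKT pathway genes was higher or lower, and their median was -0.13 (-0.14 to -0.07). ITGB1, the shared beta chain, was 169.7 and 164 FPKM, and the focal adhesion kinase PTK2 8.59 and 10.6 FPKM. With 1 library a condition these values do not show that the genes were unaffected.

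Genes of DNA replication lay below 0 almost without exception. All 40 listed were measured, 39 were below 0 and 3 were lower, with a median of -0.53 (-0.62 to -0.46). The lower members included the primase subunit PRIM1 (13.8 and 4.63 FPKM, -1.4) and the maintenance methylation factor UHRF1 (18.7 and 6.76 FPKM, -1.34). RFC4, a clamp loader subunit, was the 1 member above 0, at 19.99 and 22.4 FPKM (0.16). For mitosis genes 33 of 39 were below 0, 1 was lower and the median was -0.34 (-0.37 to -0.28). The lower one was FOXM1, the transcription factor that drives mitotic genes (18.1 and 8.28 FPKM, -1.04), yet AURKA (56.7 and 56.7 FPKM, 0.00), UBE2C (134 and 138 FPKM, 0.04) and AURKB (25.4 and 30.9 FPKM, 0.28), which act in mitosis, lay at 0 or above. CDKN1A, the inhibitor that blocks entry into S phase, was higher in the same library, as given above.

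Among single lower genes were the splicing regulators HNRNPM (63.7 and 27.9 FPKM, -1.16), SRSF6 (33.4 and 14 FPKM, -1.2) and TRA2A (27 and 11.5 FPKM, -1.16) and the RNA helicase DHX9 (50.8 and 23.3 FPKM, -1.09). The cold-induced RNA-binding protein RBM3 stood at 66 and 32.3 FPKM (-1.01). These 5 were picked after the values were seen and stand for no list, and other RNA-processing genes were not counted. Among WNT genes 14 of 17 measured members were below 0, with a median of -0.40 (-0.56 to -0.10) that was -0.10 with no filter, and the lower one was the secreted inhibitor DKK1 (6.48 and 2.73 FPKM, -1.0). The receptors LRP5 (8.98 and 4.22 FPKM, -0.93) and FZD1 (17.9 and 9.11 FPKM, -0.91) followed.

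Sterol genes split within a list. SREBF1, which encodes the transcription factor of lipid synthesis, was lower at 30.5 and 13.4 FPKM (-1.13), while MSMO1 of the sterol pathway was higher at 29 and 61.1 FPKM (1.05). INSIG1, which holds back sterol synthesis (79.8 and 145 FPKM, 0.85), and the mevalonate pathway enzyme HMGCS1 (14 and 24.4 FPKM, 0.75) were above 0, and the list of 30 measured genes had a median of 0.25 (0.17 to 0.31).

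All 13 mitochondrially encoded genes lay below 0 and 2 were lower, MT-CO3 and MT-ATP8 (751 and 341 FPKM, -1.14), with a median of -0.62 (-0.62 to -0.46). The cytochrome oxidase chain MT-CO3 was 3768 and 1661 FPKM (-1.18) and MT-CYB 1462 and 787 FPKM (-0.89), whereas MT-ND4 was 2191 and 2044 FPKM (-0.10). Cytosolic ribosomal protein genes had 34 of 35 above 0, none past 2-fold and a median of 0.14, which was 0.04 under quantile scaling and 0.21 under the trimmed mean.

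The messages of the higher genes were also searched for a feature that the size rule did not use. The nonamer TTATTTATT, the core of AU-rich elements that mark short-lived mRNAs, was searched in the longest 3′ UTR of each gene in GENCODE 29, a search added after the values were seen. It was present in 11 of 26 genes at least 4-fold higher (42.3%), in 27 of 184 higher genes (14.7%), in 7.04% of lower genes and in 9.28% of all measured genes. Median 3′ UTR lengths were 733, 857, 1548 and 1618 bases in the same order, so the largest share stood with the shortest UTRs. CSF2, the gene with the largest difference, had 3 copies in 318 bases and CXCL2 had 5 in 721 bases, while IL1B had 2 in 610 bases. On the lower side FOS had 1 copy in 806 bases. Genes at least 4-fold higher were also compact, with a median span of 6480 bases against 32580 bases for all measured genes.

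The same genes were then read in the other lines. Of the 184 higher genes 153 were measured in BHT-101, where 105 lay above 0 with siCRABP2 (68.6%, against 53.4% of all measured genes of that line), and 7 were at least 2-fold higher (4.58%, against 0.152%). Their median difference in BHT-101 was 0.11. In BHT-101, 35 of the 36 interferon-stimulated genes measured there lay above 0, with a median of 0.58, against 1.06 in FTC-133. The ATF4 list had a median of -0.01 there with 15 of 32 above 0, against 0.87 in FTC-133, and GDF15 differed by -0.42. Of the 145 lower genes 94 were measured in BHT-101, where 53 lay below 0 (56.4%, against 46.6% of all measured genes), with a median of -0.02. CRABP2 was the only one of them at least 2-fold lower (1.06%, against 0.0285%). Differences between lines were not tested, since each has 1 library a condition.

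With the CRABP2 vector in 8505C, 73 of 143 measured genes from the higher set lay above 0 (51.0%, against 52.6% of all measured genes there), 8 passed 2-fold upward (5.59%, against 1.27%) and 12 downward (8.39%, against 1.18%). Of 89 measured genes from the lower set 50 lay below 0 (56.2%, against 47.4%), 5 passed 2-fold upward (5.62%) and 2 downward (2.25%). The chemokines went the other way in that line, with 0 of 7 measured above 0 and a median of -0.83, and so did IL6 (49.1 FPKM in the empty vector library, 21.8 FPKM in the other, -1.14). ID3 was 15.1 and 35.9 FPKM in 8505C (1.2), and DNA replication genes were above 0 in 29 of 31 cases. Not every list was mirrored. The matrix list of collagens and laminins had a negative median in FTC-133 (-0.30) and in 8505C (-0.52, with 2 of 18 measured genes above 0). Ribosomal protein genes had 34 of 35 above 0 in both lines. Interferon-stimulated genes were split in 8505C, where 11 of 24 lay above 0 and the median was -0.05. How many of the 44 lists were mirrored was not counted. CTSL was higher in both FTC-133 with siCRABP2 and 8505C with the CRABP2 vector (2.47), while CRABP2 differed by -3.09 and 4.6. Each of the 3 comparisons had all 13 mitochondrially encoded genes below 0. Across genes the differences in FTC-133 correlated with those in BHT-101 at Pearson r 0.208 (9697 genes) and with those in 8505C at 0.056 (9538 genes). Genes are not independent replicates, and within a comparison they share 2 libraries.

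**Figure D5:**
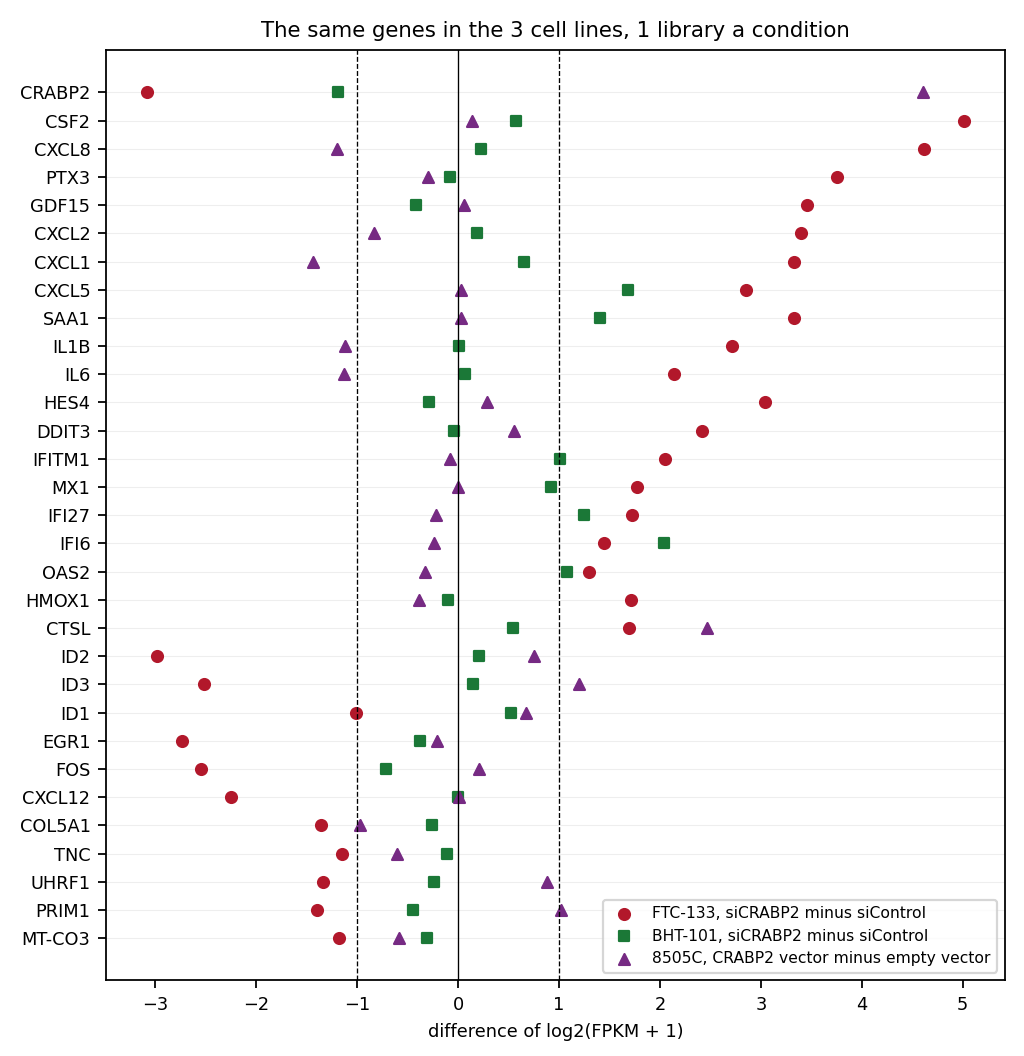
Differences of log2(FPKM + 1) for the same genes in 3 cell lines, 1 library a condition: circles are FTC-133 and squares BHT-101, both siCRABP2 minus siControl, and triangles are 8505C, CRABP2 vector minus empty vector; dashed lines mark 2-fold. Interferon-stimulated genes such as IFI6 lie to the right in both knockdowns, whereas GDF15, DDIT3 and ID2 differ by 2-fold or more in FTC-133 and lie within 2-fold in the other lines.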

How the data were processed

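RNA of 3 thyroid carcinoma cell lines was sequenced, 1 library a condition. The FPKM values, scaled to exon length and depth, were deposited by the authors in 1 table of 58884 gene identifiers. Per the submitters' processing notes the tools were FastQC, Trimmomatic 0.38 and featureCounts 2.0.0 with genome build GRCh38. Not given in the sources used here are the aligner, the annotation release and the strand setting. Reads of overlapping or antisense genes are therefore uncertain.

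Gene names, types and exon lengths came from GENCODE release 29, which may not be the authors' release and named 58611 identifiers. Reads were recovered from FPKM as whole multiples within 0.001 reads, with the release 29 length for 74.9% of 33848 genes above 0 and with that or another length for 99.1%. Library totals so recovered ran from 22084110 to 27958622 over the 6 libraries. No count test was made, since each group has 1 library.

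Differences were taken on log2(FPKM + 1) over protein-coding genes with at least 1 FPKM in one or both libraries. Python 3.11.15 was used with numpy 2.4.6, pandas 2.3.3 and scipy 1.17.1. The code was checked on simulated counts with planted changes. Those counts hold no variation between cultures, so the check does not bear on the calls. Named genes were CRABP2, the 40 largest differences each way with at least 5 FPKM, all genes at least 2-fold different with at least 50 FPKM, and members of the gene lists. PF4, PF4V1, MTHFD2L, TNFRSF9, SMOX, SRSF6, TRA2A, CHRNA9, MSC and TCIM lie outside that rule and were chosen with their values in view. The genes and lists were chosen with earlier results of these data known. Promoter windows and letters are from RefSeq (GRCh38.p14), with 8794 of 10950 measured genes matched by symbol. Other pseudocounts, filters, scalings and recovered reads were tried as alternatives. The 3′ UTR search and the count limited to genes whose counting interval excludes no change were added after seeing the data.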

Additional observations from a re-analysis of the deposited data

Results flagged for a closer look

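On log2(FPKM + 1), siCRABP2 minus siControl, 5 genes at least 2-fold different in FTC-133 differed by at least 0.5 the opposite way in BHT-101. They come from 153 higher and 94 lower genes that were measured in BHT-101. Genes past 0.5 the same way, and the share past 0.5 over all measured genes, are not given here. Nothing is therefore read from the number of such genes. The labels do not say whether both lines were given the same siRNA sequences. Each line has 1 library a condition, and the difference between the lines was not tested. ID1, an inhibitor of basic helix-loop-helix factors, differed by -1.01 in FTC-133 and by 0.53 in BHT-101. C1orf53 differed by -1.27 in FTC-133 and 0.51 in BHT-101, and CHRNA9, an acetylcholine receptor subunit, by -1.12 and 0.85. Above 0 in FTC-133 and below 0 in BHT-101 were MSC, a transcription factor (1.26 and -0.81), and TCIM (1.55 and -0.52).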

How the results depend on the processing

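No paired analysis was possible because each condition has 1 library, and for the same reason no library could be left out. The main counts, 184 higher and 145 lower, became 312 and 367 with a pseudocount of 0.1 FPKM, 78 and 31 with 5 FPKM, and 533 and 833 on recovered reads scaled to depth, where low genes weigh more. The FTC-133 CRABP2 difference of -3.09 was -5.065, -1.43 and -5.46 under the same settings. Scaling moved the counts less, to 193 and 129 by quantiles and to 215 and 122 by a trimmed mean of log ratios, and the median of all genes from -0.04 to -0.01 and 0.02. The counts were 139 and 113 with at least 5 FPKM and 184 and 145 with no filter. Of 174 named genes past 2-fold, 165 stayed so under quantile scaling, 167 under the trimmed mean and 99 with 5 FPKM added, and all 174 with 0.1 FPKM, no filter or recovered reads. List medians changed sign for EGF genes (-0.05 to 0.02 by quantiles, 0.01 by the trimmed mean), G1 cyclins (-0.08 to 0.08), epithelial junction genes (0.10 to -0.02) and markers of epithelium (0.10 to -0.06) with at least 5 FPKM, and for TGF-beta genes (0.02 to -0.01) and markers of fibroblasts (-0.69 to 0.00) with no filter; all lie near 0 but the last, which then counts barely expressed markers.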

Other observations

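Genes in no list made up 123 of the 145 lower genes, and some of the most different with at least 5 FPKM are given here as single genes. LHX1, a LIM homeobox factor, stood at 11.3 and 2.18 FPKM (-1.96), NEFL, a neurofilament chain, at 5.96 and 1.83 FPKM (-1.3) and APLP1, a relative of the amyloid precursor, at 8.14 and 2.59 FPKM (-1.35). PMEPA1, which dampens TGF-beta signals, was lower at 23.2 and 7.58 FPKM (-1.5), on the same side as TGFBR2 (-0.96). The corepressor ZNF703 stood at 22.7 and 8.25 FPKM (-1.36) and PEG10, a gene derived from a retrotransposon, at 122 and 55.9 FPKM (-1.12). NCOA5, a nuclear receptor coregulator, was 12.8 and 4.48 FPKM (-1.33).

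On the higher side, genes in no list with such levels included SERP1, which protects new membrane proteins in the endoplasmic reticulum (31.6 and 65.4 FPKM, 1.03), and UGCG, which makes glucosylceramide (27.1 and 57.9 FPKM, 1.07). The chromatin protein HMGA1 stood at 139 and 287 FPKM (1.04) and MKNK2, a kinase of the translation factor eIF4E, at 33.5 and 88.1 FPKM (1.37). In the epithelial list the tight junction genes CLDN1 (0.866 and 4.63 FPKM, 1.59) and CLDN7 (2.07 and 5.45 FPKM, 1.07) were higher while KRT8 was 33.3 and 28.7 FPKM (-0.21). Outside the protein-coding genes 1874 others were measured, of which 119 were higher and 157 lower by the same 2-fold rule. Both are larger shares than the 1.68% and 1.32% of protein-coding genes. Their levels and reads were not examined, and reads of overlapping or antisense genes are uncertain, so nothing is read from these counts.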
